A study of Homo sapiens with 24 samples.

Results

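The 6 libraries described here hold RNA from ALDHbr cells of SUM159, a breast cancer cell line. They were taken by their labels from a series of 24 libraries, which fall into 8 groups of 3: ALDHbr and ALDHneg cells of SUM159 and of SW620, a colon cancer cell line, each under nifuroxazide (NIF) or under DMSO, its solvent. NIF is a nitrofuran antibiotic that is also used as an inhibitor of STAT3. Adherent cells were kept with NIF or DMSO for 30 h and were sorted afterwards, so that the ALDHbr gate was applied to cells that had already been treated. The 3 NIF and 3 DMSO libraries of SUM159 ALDHbr cells come from 3 independent experiments with 1 library of each kind, and every library derives from the same cell line. The labels give the concentration of the drug stock but not that in the culture. The question put to the data was which genes differed between NIF and DMSO in these cells.

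ALDHbr cells are those that convert a fluorescent aldehyde (the ALDEFLUOR reagent) to a retained bright product, because aldehyde dehydrogenase is active in them. In breast tumours and cell lines this gate is used to enrich cells with stem-like properties. Cells meet reactive compounds with several transcription factors, among them NRF2, which acts through antioxidant response elements on genes for glutathione, thioredoxin, heme and NADPH metabolism, and the aryl hydrocarbon receptor (AHR), which acts on genes of the CYP1 family. NF-kB and STAT3 are the factors through which cytokines such as interleukin 1 and interleukin 6 act on gene expression.

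The deposited raw counts summed to between 30253187 and 36947361 per DMSO library and between 32010528 and 39172364 per NIF library. Same-numbered libraries deviated together from their group means in all 18 such pairs of the 12 SUM159 libraries (Pearson r over genes of 0.256, 0.218 and 0.451 for the ALDHbr pairs), and each fit carried the replicate number as a block. The 10 mesenchymal marker genes, which SUM159 is known for, were all expressed, with a summed level of 13520.1 to 14425 CPM of total counts (counts scaled to library size) under NIF and 13022 to 15631 under DMSO. The 10 colon epithelial markers summed to 0.209 to 1.02 under NIF and to 0.247 to 8.74 under DMSO, and the highest value was that of DMSO replicate 3. In that library all of 39 genes that are abundant in SW620 and nearly silent in SUM159 had counts, at 0.372% of their summed SW620 level, against 0.00971% to 0.0214% and 14 to 26 of the 39 genes in the other 11 SUM159 libraries. That share of the SW620 level came to more than 10% of the value in DMSO replicate 3 for 21 of the 1994 genes called below, 17 lower and 4 higher under NIF. They include CYP1B1 (52.0%), CA9 (97.8%), ALDH1A3 (66.7%), SOX9 (11.7%) and CD24 (11.0%), while CYP1A1 was at 0.881%. Without the library, LYZ, among the 21, went from -1.78 to 0.04 on the log2 scale, and no other of the 1987 called genes that could be tested without it turned its direction. How these reads came into the library was not tested.

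Of 14953 genes tested, 1994 (13.3%) differed between NIF and DMSO in SUM159 ALDHbr cells at an adjusted p below 0.05 in edgeR's quasi-likelihood test with Benjamini-Hochberg adjustment, and 4055 (27.1%) had an unadjusted p below 0.05. Of the 1994, 863 (5.77% of genes tested) rose and 1131 (7.56%) fell under NIF. Changes were small for most called genes. The median log2 fold change (NIF over DMSO) was 0.24 among the genes that rose and -0.32 among those that fell, and 1674 of the 1994 changed by less than 1.5-fold. A change of at least 2-fold was found for 137 genes (0.916%), with 19 (0.127%) higher and 118 (0.789%) lower. All 3 pairs moved the same way for 1979 of the called genes (99.2%, against 48.8% of all genes tested). The NIF and DMSO libraries did not overlap for 1589 (79.7%, against 23.2%). Both shares are high by the choice of genes, since the calls rest on these same libraries and pairs. They are no separate support for the calls. Fewer genes were called without the pairing of replicates (473, with 140 higher and 333 lower) or without DMSO replicate 3 (1097, with 365 higher and 732 lower, of which 1043 were among the 1994 with the same direction). In bulk RNA, a change in the share of some cells within the gate and a change per cell cannot be told apart.

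The highest fold change among genes whose log2 CPM averaged 1 or more was that of HMOX1 (Entrez Gene 3162, chr22:35381096-35394207 in GRCh38.p14), the enzyme that breaks down heme. It stood at 841, 1089.7 and 675 CPM (from here on with TMM-scaled library sizes) in NIF replicates 1 to 3 and at 211, 317 and 174 in the DMSO replicates, a 3.74-fold difference (log2 1.90 ± 0.07, adjusted p = 3.77e-13 by edgeR). Every NIF library was above every DMSO library by more than 2-fold. KLF2, a transcription factor best known in endothelial cells, was at 5.72, 5.92 and 9.59 CPM under NIF and 2.53, 2.65 and 4.09 under DMSO (log2 1.19 ± 0.11). Next came ARC (1.10), the immediate early gene of synapses, and NMRAL2P (1.01), a pseudogene. CHAC1, a glutathione-degrading enzyme, rose by 0.95, and the rest of the 12 highest were FOS (0.92), CALHM5 (0.91), ABCB1 (0.91), HSPA6 (0.89), AKR1C1 (0.87), ZNF585B (0.85) and ZNF470 (0.84), all as log2 fold changes. ARC, FOS, ABCB1 and HSPA6 missed the threshold without the pairing.

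The 12 lowest fold changes with the same conditions were further from 0 than all of the high ones but that of HMOX1. SHISA2 (log2 -2.26 ± 0.17), which codes for a membrane protein that restrains Wnt and FGF receptors, was at 2.16, 3.53 and 1.38 CPM under NIF and 11.3, 12.7 and 8.40 under DMSO. RUNX2 (Entrez Gene 860, chr6:45328330-45551082), the transcription factor of bone formation, fell from 18.4, 20.0 and 14.6 CPM in the DMSO replicates to 4.31, 4.37 and 3.34 under NIF (log2 -2.14 ± 0.09, edgeR adjusted p = 1.63e-12), with nearly the same ratio in all 3 pairs. The others were GLIS1 (-2.17), IL1B (-2.07), CSF3 (-2.02), MN1 (-2.02), HSD11B1 (-2.01), CDK15 (-1.96), SEMA6D (-1.96), DCN (-1.94), EPGN (-1.87) and HS6ST3 (-1.69). The groups did not overlap for any of these 12 genes, against 23.2% of all genes tested and 79.7% of called genes. The genes were chosen for large changes with one sign in all pairs, so this is no separate support. Among the lowest p-values were also those of SYNE2, a nuclear envelope protein of the LINC complex, at 84.2, 90.7 and 102 CPM under NIF and 220.4, 209 and 217 under DMSO (log2 -1.23 ± 0.07). FAM167A (log2 -1.68 ± 0.08), SLC7A2 (-0.96 ± 0.06), a carrier of cationic amino acids, and NPTX1 (-0.87 ± 0.05) belonged there too, and of these only NPTX1 missed the threshold without the pairing.

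**Figure D1:**
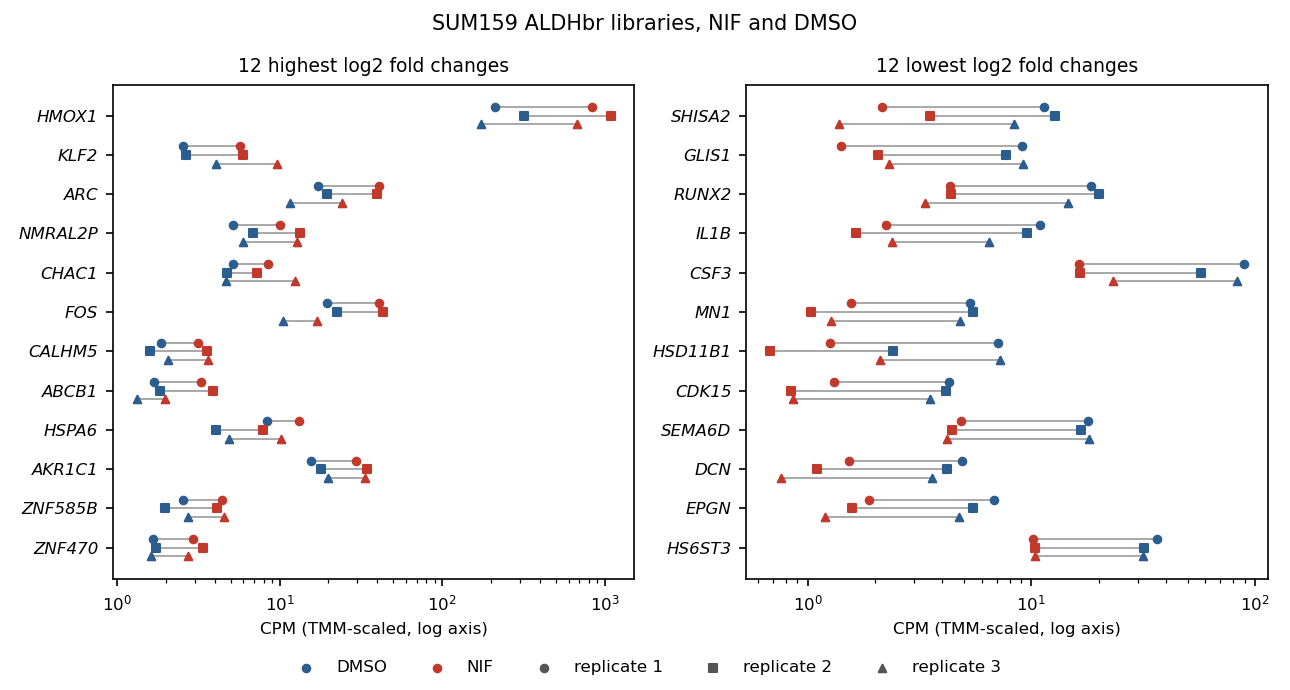
Level of the 12 genes with the highest and the 12 with the lowest log2 fold change in each of the 6 libraries, in TMM-scaled CPM on a log axis, with DMSO in blue, NIF in red and a grey line joining the 2 libraries of one replicate. One sign in all pairs was a condition for choosing these genes. NIF thus lies right of DMSO in each left-panel pair and left of it in each right-panel pair. HMOX1 lies far to the right of the other genes that rose.

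NRF2 targets rose together. Of 33 tested members of a list of 35, 26 were higher and 1 was lower under NIF, at a median log2 fold change of 0.37, against 5.77% higher and a median of -0.00 over all genes. The count was 20 higher and none lower without the pairing, and 24 higher and 1 lower without DMSO replicate 3. All 5 genes of the heme and iron group rose. Beside HMOX1 these were FTL (2426, 2809 and 2348 CPM under NIF and 1746, 1937 and 1494 under DMSO, log2 0.55 ± 0.06) and FTH1 (0.36), the chains of ferritin, the heme carrier SLC48A1 (0.43) and the biliverdin reductase BLVRB (0.24). ALAS1 (0.45), the first enzyme of heme synthesis, which was not on the list, rose as well. The members of the group other than HMOX1 rose by less than 1.5-fold, and BLVRB overlapped between the groups.

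Among the glutathione genes, both subunits of the enzyme that makes gamma-glutamylcysteine rose. GCLM was at 118, 137 and 105 CPM under NIF and 89.1, 98.2 and 84.6 under DMSO (log2 0.40 ± 0.06), and GCLC rose by 0.48 ± 0.06. GSR, which reduces glutathione, rose by 0.34, whereas the cystine carrier SLC7A11, at 373, 333 and 401 CPM under NIF and 314, 335 and 361 under DMSO, did not pass the test (0.13 ± 0.07, edgeR adjusted p = 0.206). All 4 thioredoxin genes rose, against 5.77% of all genes. They were TXNRD1 (1039.7, 1078 and 949 CPM under NIF and 676, 762 and 713 under DMSO, log2 0.51 ± 0.06), SRXN1 (0.35), TXN (0.26) and PRDX1 (0.24).

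Of 7 tested genes for quinone and carbonyl reduction 6 rose (85.7%, against 5.77% of all genes). AKR1C1 (0.87) and AKR1C2 (0.79), which share most of their sequence so that reads could be split between them, led this group with AKR1C3 (0.64). The quinone reductase NQO1 was at 434, 513 and 412 CPM under NIF and 297, 383 and 293 under DMSO (log2 0.49 ± 0.06), and the epoxide hydrolase EPHX1 (0.58) and the carbonyl reductase CBR1 (0.35) were higher too. Genes that supply NADPH rose, with PGD at 0.39, ME1 and TKT at 0.27 and 0.27, and TALDO1 at 0.20. OSGIN1 (0.79), the autophagy receptor SQSTM1 (0.42) and UGDH (0.62), which makes UDP-glucuronate, rose among the remaining 6 members, and the single member that fell was the efflux pump ABCC2 (-0.40 ± 0.10), whose groups overlapped and whose call was lost without the pairing.

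To show what the sequence upstream of these genes holds, the 250 bases before the start of each gene were taken from the RefSeq promoter table (GRCh38.p14), which matched 11535 of the 14953 genes tested. They were searched on both strands for 6 motifs given as letters. The antioxidant response element core TGACNNNGC was found in 6 of the 26 NRF2 targets with an entry (23.1%) and in 12.0% of all promoters. Of the 6 genes with the core 5 rose, and of the 20 without it 16 rose. The promoters of TXNRD1 (chr12:104215529-104215778, plus strand) and GCLM (chr1:93909431-93909680, minus strand) are shown since they hold the core and belong to pathways described above. Both are written 5′ to 3′ along the gene with the match in capitals, which starts 99 bases before the start in TXNRD1 and 34 bases before it in GCLM, where it reads on the opposite strand.
TXNRD1: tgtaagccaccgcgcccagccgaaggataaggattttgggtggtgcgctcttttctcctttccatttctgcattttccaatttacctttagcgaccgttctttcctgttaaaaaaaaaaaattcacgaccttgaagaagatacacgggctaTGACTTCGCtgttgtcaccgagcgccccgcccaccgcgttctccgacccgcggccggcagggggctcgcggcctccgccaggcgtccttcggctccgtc
GCLM: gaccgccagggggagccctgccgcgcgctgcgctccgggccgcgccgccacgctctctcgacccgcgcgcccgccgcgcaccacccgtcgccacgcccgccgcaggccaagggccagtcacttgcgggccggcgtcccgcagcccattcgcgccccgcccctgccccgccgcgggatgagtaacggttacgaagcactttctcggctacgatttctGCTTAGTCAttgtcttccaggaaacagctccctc

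Of 11 genes on the AHR list 7 passed the filter on low counts. Among these, 4 were lower under NIF (57.1%, against 7.56% of all genes) and none higher (median log2 -0.28). Only 2 of its 5 target genes, CYP1A1 and CYP1B1, could be tested, and both fell. TIPARP and the receptor itself were the others that fell. CYP1A1 (Entrez Gene 1543, chr15:74719542-74725528), the monooxygenase most widely used as a readout of AHR, was at 0.590, 0.485 and 0.366 CPM in NIF replicates 1 to 3 and at 8.50, 6.87 and 2.66 in the DMSO replicates. It was 12.1-fold lower under NIF (log2 -3.59 ± 0.25, edgeR adjusted p = 2.86e-09), and the DMSO level differed about 3-fold between replicates while every NIF library was below 1 CPM. CYP1B1 was low, at 0.0513, 0.0647 and 0.104 CPM under NIF and 0.463, 0.851 and 0.404 under DMSO (log2 -2.89 ± 0.58), and it was -3.55 without DMSO replicate 3. TIPARP, a poly(ADP-ribose) polymerase that AHR induces and that acts back on the receptor, was at 60.1, 52.5 and 52.3 CPM under NIF and 96.9, 96.2 and 85.3 under DMSO (log2 -0.75 ± 0.05, edgeR adjusted p = 1.84e-09).

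The receptor itself, AHR, fell by less (63.5, 55.3 and 70.4 CPM under NIF and 77.1, 70.0 and 82.2 under DMSO, log2 -0.28 ± 0.07), with 1 NIF library above 1 DMSO library, and missed the threshold without the pairing and without any 1 of NIF replicates 1 and 2 and DMSO replicates 2 and 3. Its partners ARNT (-0.09) and PTGES3 (-0.05) did not pass the test. The xenobiotic response element core GCGTG stood in 3 of 5 AHR list promoters (60%), and in 44.7% of all promoters. Of the 3 genes with it 2 fell, and of the 2 without it 1 fell. The promoters of CYP1A1 (chr15:74725529-74725778, minus strand) and TIPARP (chr3:156674340-156674589, plus strand) are shown for the targets described here, with the core in capitals. It starts 57 bases before the start in CYP1A1, and in TIPARP it occurs on the opposite strand at 208 and 142 bases.
CYP1A1: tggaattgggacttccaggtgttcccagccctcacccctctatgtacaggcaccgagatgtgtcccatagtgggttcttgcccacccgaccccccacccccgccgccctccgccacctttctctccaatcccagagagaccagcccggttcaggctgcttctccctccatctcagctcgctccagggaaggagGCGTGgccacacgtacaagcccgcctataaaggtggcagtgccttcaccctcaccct
TIPARP: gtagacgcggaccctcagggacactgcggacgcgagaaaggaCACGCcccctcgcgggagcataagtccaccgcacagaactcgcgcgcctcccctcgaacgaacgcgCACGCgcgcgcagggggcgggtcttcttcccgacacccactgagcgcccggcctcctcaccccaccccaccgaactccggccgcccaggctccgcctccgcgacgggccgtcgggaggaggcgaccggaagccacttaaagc

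Cytokines and NF-kB targets fell. Of 28 tested genes of 36, 20 were lower under NIF (71.4%, against 7.56% of all genes) and none was higher. The median log2 fold change was -0.56, with values from -2.07 to 0.83. The count was 20 also without DMSO replicate 3 and 7 without the pairing. The interleukin 1 genes fell, with IL1B at 2.23, 1.65 and 2.38 CPM under NIF and 10.9, 9.60 and 6.49 under DMSO (log2 -2.07 ± 0.22, edgeR adjusted p = 1.62e-06) and IL1A at 30.5, 29.4 and 30.1 under NIF and 62.7, 66.2 and 50.8 under DMSO (log2 -0.98 ± 0.14). Neither overlapped between the groups. CSF3, which codes for the growth factor of granulocytes, was at 16.3, 16.5 and 23.2 CPM under NIF and 89.3, 57.4 and 83.3 under DMSO (log2 -2.02 ± 0.13). CSF2 (-1.59), the growth factor shared by granulocytes and macrophages, was lower too.

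Of 6 tested chemokines 4 fell (66.7%, against 7.56% of all genes). CXCL8, which draws neutrophils, was at 234, 247 and 202 CPM under NIF and 461, 501 and 348 under DMSO (log2 -0.93 ± 0.10). CXCL2 (-0.71 ± 0.10), CXCL3 (-0.61 ± 0.10) and CCL20 (-0.80 ± 0.24) fell with it, each with overlapping groups, and each of these missed the threshold without the pairing. Of 14 NF-kB targets 12 fell (85.7%, against the same 7.56%). TNFAIP3, a deubiquitinase that ends NF-kB signalling, was at 134, 116 and 86.0 CPM under NIF and 248, 236 and 157 under DMSO (log2 -0.93 ± 0.07, edgeR adjusted p = 1.53e-08), and BIRC3, an inhibitor of apoptosis, at 109.9, 92.8 and 119.8 under NIF and 196, 166 and 193 under DMSO (log2 -0.78 ± 0.06). NFKBIA (-0.39), the inhibitor that holds NF-kB in the cytoplasm, and the adhesion molecule ICAM1 (-0.40) were lower as well. CSF2, NFKBIA and ICAM1 were named after their values were seen.

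The NF-kB element (GGGA and TTCC around 2 bases of any kind) was present in 7 of 24 promoters of this list (29.2%), against 1.38% of all promoters, and the AP-1 element TGANTCA in 3 (12.5%, against 4.33%). Matches of the NF-kB element and of the STAT element can share bases, as can those of the antioxidant core and of AP-1. Of the 7 genes with the NF-kB element 5 fell, and of the 17 without it 12 fell. The promoters of TNFAIP3 (chr6:137867009-137867258, plus strand) and CXCL2 (chr4:74099196-74099445, minus strand) are printed because these genes fell and hold the element, marked in capitals. In TNFAIP3 it stands on the opposite strand from 67 bases before the start that the table uses, and in CXCL2 the match reads on both strands from 78 and 77 bases.
TNFAIP3: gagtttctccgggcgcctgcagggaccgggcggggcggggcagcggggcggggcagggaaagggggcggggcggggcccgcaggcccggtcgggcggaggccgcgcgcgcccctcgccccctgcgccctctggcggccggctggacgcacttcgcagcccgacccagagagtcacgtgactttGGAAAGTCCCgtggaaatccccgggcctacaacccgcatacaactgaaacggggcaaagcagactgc
CXCL2: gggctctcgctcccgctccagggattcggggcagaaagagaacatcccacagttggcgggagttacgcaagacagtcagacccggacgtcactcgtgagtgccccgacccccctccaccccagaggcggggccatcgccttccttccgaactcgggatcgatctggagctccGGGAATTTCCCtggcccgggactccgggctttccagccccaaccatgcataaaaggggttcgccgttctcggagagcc

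Of 32 tested genes of the IL-6/JAK/STAT3 pathway 7 fell (21.9%) and 1 rose (3.1%), against 7.56% and 5.77% of all genes. The median log2 fold change was -0.08, and without the pairing 1 fell and none rose. IL6 was at 3.59, 2.52 and 2.22 CPM under NIF and 7.82, 6.47 and 3.82 under DMSO (log2 -1.10 ± 0.14, edgeR adjusted p = 1.05e-05). It fell in each pair, and its call was lost without the pairing. The receptor subunits IL6ST (438, 402 and 471 CPM under NIF and 529.5, 506 and 595 under DMSO, log2 -0.32 ± 0.06) and OSMR (-0.23 ± 0.05) fell, while LIFR (0.06), IL6R (-0.07) and IL11RA (0.49) did not pass the test. STAT3 was at 161, 157 and 161 CPM under NIF and 191, 169 and 180.2 under DMSO, a log2 fold change of -0.17 ± 0.05 (edgeR adjusted p = 0.0127). Its groups did not overlap, but the call was lost without the pairing and without any 1 of NIF replicates 1 and 3 and DMSO replicate 1. JAK1 (-0.08), JAK2 (-0.16) and TYK2 (0.09) did not pass the test.

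SOCS3, the feedback inhibitor that STAT3 induces, was the member that rose, at 29.6, 29.3 and 26.9 CPM under NIF and 24.2, 24.3 and 24.2 under DMSO (log2 0.24 ± 0.07, edgeR adjusted p = 0.0192), and it too lost its call without the pairing. Among the targets BCL3 (-0.56 ± 0.08) and NNMT (-0.53 ± 0.08) had the lowest p-values of the 3 that fell. CCND1, at 645, 672 and 671 CPM under NIF and 603, 644 and 593 under DMSO, did not pass the test (log2 0.11 ± 0.05, edgeR adjusted p = 0.121). The STAT element TTCNNNGAA was found in 2 of 22 promoters of this list (9.09%) and in 5.72% of all promoters. Neither gene with it was called, and of the 20 without it 5 fell and 1 rose. Of 31 tested interferon response genes 2 fell (6.45%) and 1 rose (3.23%), below the 7.56% and 5.77% of all genes (median log2 -0.01). DDX58 (-0.40) and IRF1 (-0.35) fell and IFI44 (0.36) rose, and none was called without the pairing.

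A list of EGF family ligands was chosen after the values were seen. Of its 9 tested members 4 fell (44.4%, against 7.56% of all genes) and none rose. EREG (epiregulin) was at 79.3, 73.9 and 90.0 CPM under NIF and 274, 219 and 214 under DMSO (log2 -1.53 ± 0.10, edgeR adjusted p = 7.57e-10). EPGN (epigen), which lies beside it on chromosome 4, was at 1.87, 1.59 and 1.20 under NIF and 6.83, 5.48 and 4.74 under DMSO (log2 -1.87 ± 0.20). AREG (amphiregulin, -0.90 ± 0.14) and NRG1 (neuregulin 1, -0.68 ± 0.11) fell too. AREG, whose groups overlapped, lost its call without the pairing, and the other members were not called.

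MMP1 (Entrez Gene 4312, chr11:102789919-102798160), the interstitial collagenase, was at 0.0770, 0.291 and 0.444 CPM under NIF and 2.22, 2.42 and 2.85 under DMSO (log2 -3.21 ± 0.35, edgeR adjusted p = 1.62e-06), 9.26-fold lower. PLAU, the urokinase that activates plasminogen, was at 15.2, 20.0 and 17.0 under NIF and 45.3, 49.9 and 39.7 under DMSO (log2 -1.37 ± 0.08, edgeR adjusted p = 1.92e-10). Of 30 tested collagen genes 12 fell (40%, against 7.56% of all genes) and 2 rose (6.67%, median log2 -0.25), and without the pairing 2 fell and 2 rose. Among the type IV chains, which are built into basement membranes, COL4A1 (186, 158 and 166 CPM under NIF and 104, 134 and 129.8 under DMSO, log2 0.47 ± 0.10) and COL4A2 (0.39 ± 0.08) rose, and COL4A5 (-0.52 ± 0.05) and COL4A6 (112, 128 and 100.2 under NIF and 173, 189.6 and 173 under DMSO, log2 -0.66 ± 0.05) fell. TGFBI (-0.46 ± 0.05), an adhesion protein of the matrix, fell. KRT7 (0.49 ± 0.04), a keratin of simple epithelia, and KITLG (0.68 ± 0.07), the ligand of KIT, rose. In the list of mesenchymal state genes 3 rose and 3 fell of 21 (14.3% each, against 5.77% and 7.56% of all genes). VIM at 0.17, SNAI1 at 0.67 and LOX at 0.53 stood against MMP1, FN1 at -0.21 and LOXL2 at -0.19. Without the pairing MMP1 was the single call. All 3 tested metallothioneins, which bind zinc and copper, fell, with MT2A at 1220.3, 1345 and 1331 CPM under NIF and 1769.9, 1636 and 1637 under DMSO (log2 -0.37 ± 0.05), MT1X at -0.49 ± 0.06 and MT1E at -0.24 ± 0.06.

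Genes of G2 and mitosis fell, by small amounts. Of 54 tested members of the G2/M list 32 were lower and none was higher under NIF (59.3%, against 7.56% of all genes), at a median log2 fold change of -0.20 and none beyond -0.56. The count was 25 without DMSO replicate 3 and 13 without the pairing. MKI67, the proliferation antigen Ki-67, was at 484, 467 and 555 CPM under NIF and 693, 699 and 824 under DMSO (log2 -0.56 ± 0.06, edgeR adjusted p = 1.32e-06). CENPF, a kinetochore protein, was at 207, 185 and 221 under NIF and 259.8, 253 and 304 under DMSO (log2 -0.41 ± 0.05), and CENPE (-0.47 ± 0.05), NUSAP1 (-0.34 ± 0.05) and DLGAP5 (-0.33 ± 0.05), the last named for its promoter after its values were seen, fell too. Of 47 kinesin and kinetochore genes 14 fell (29.8%) and none rose (4 without the pairing). Those that fell include KIF20A (-0.38 ± 0.05) and KIF14 (-0.40 ± 0.06), motors of cytokinesis.

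Of 43 tested genes of S phase 6 rose (14.0%, against 5.77% of all genes) and none fell (median log2 0.06). Of these EXO1 had the highest fold change, an exonuclease of replication and repair, at 73.8, 70.8 and 81.2 CPM under NIF and 55.9, 59.5 and 63.1 under DMSO (log2 0.34 ± 0.05), and RRM2 (0.21 ± 0.04), CDC6 (0.18 ± 0.05) and MCM5 (0.18 ± 0.04) were also higher. Without the pairing 1 member was called, and without DMSO replicate 3 it was 2. Of 25 genes that license replication 4 rose (16%) and none fell, and 1 was called in either of these settings.

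The cell cycle genes homology region, or CHR element, TTTGAA, through which many mitotic genes are repressed outside G2 and M, was present in 24 of the 45 G2/M promoters (53.3%), in 1 of 33 S phase promoters (3.03%) and in 8.73% of all. Of the 24 G2/M genes with it 16 fell, and of the 21 without it 12 fell. MKI67 (chr10:128126424-128126673, minus strand) and DLGAP5 (chr14:55191586-55191835, minus strand) are shown as genes that fell and have 2 such elements each, in capitals. They start 47 and 29 bases before the start in MKI67, and 138 and 109 bases before it in DLGAP5, where the latter reads on the opposite strand.
MKI67: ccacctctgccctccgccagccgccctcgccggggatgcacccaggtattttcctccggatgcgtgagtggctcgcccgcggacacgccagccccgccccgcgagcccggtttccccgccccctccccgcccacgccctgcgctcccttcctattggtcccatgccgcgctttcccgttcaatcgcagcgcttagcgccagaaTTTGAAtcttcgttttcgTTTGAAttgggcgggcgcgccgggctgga
DLGAP5: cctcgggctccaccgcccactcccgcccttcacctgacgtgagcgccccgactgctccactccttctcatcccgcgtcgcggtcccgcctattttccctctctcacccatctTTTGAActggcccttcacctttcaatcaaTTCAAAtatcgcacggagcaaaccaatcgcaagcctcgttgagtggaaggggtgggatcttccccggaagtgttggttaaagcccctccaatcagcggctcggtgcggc

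The calls among DNA repair genes are read against 5.77% higher and 7.56% lower over all genes. In the Fanconi anemia pathway, which repairs crosslinks between DNA strands, 2 of 30 tested genes (6.67%) rose and none fell, at a median log2 fold change of 0.02 against -0.00 over all genes. FANCI, whose monoubiquitination with FANCD2 activates the pathway, was at 123, 128 and 119 CPM under NIF and 121, 122 and 121 under DMSO (log2 0.02 ± 0.04, edgeR adjusted p = 0.792). FANCD2 was at 98.4, 96.1 and 96.2 under NIF and 97.4, 96.4 and 98.9 under DMSO (log2 -0.01 ± 0.05, edgeR adjusted p = 0.918). The groups of both genes overlapped. FANCA (-0.03 ± 0.05), FANCF (-0.17 ± 0.08), FANCM (0.11 ± 0.08), BRCA1 (-0.01 ± 0.05), BRCA2 (-0.01 ± 0.07) and ERCC1 (0.02 ± 0.05) did not pass the test either.

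The ubiquitin ligase RFWD3 was a member that rose, at 136, 134 and 141 CPM under NIF and 120.4, 122 and 128 under DMSO (log2 0.15 ± 0.04, edgeR adjusted p = 0.0225). No member was called without the pairing or without DMSO replicate 3. Of 25 genes on a separate list of homologous recombination 3 (12%) rose and none fell. They were EXO1, which was called in these settings too, RAD54L (0.20) and XRCC3 (0.19). In nucleotide excision repair 1 of 20 rose (5%) and 3 fell (15%), with GTF2H4 (0.21) higher, and DDB2 (-0.32) and ERCC6 (-0.25) among those lower. Of 24 p53 targets 4 rose (16.7%) and 2 fell (8.33%). PMAIP1 (0.52 ± 0.09), a pro-apoptotic member of the BCL2 family, and TP53I3 (0.49 ± 0.13) rose the most, and MDM2 (-0.33 ± 0.05), the ubiquitin ligase of p53, fell. Without the pairing MDM2 was the single call of that list.

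Of 31 genes of ATF4 and the integrated stress response 9 rose (29.0%) and 2 fell (6.45%), against 5.77% and 7.56% of all genes. The median log2 fold change was 0.13, and without the pairing 2 rose and 1 fell. ATF5 was at 105, 107 and 112 CPM under NIF and 72.0, 79.5 and 72.3 under DMSO (log2 0.54 ± 0.06), and the serine synthesis enzymes PHGDH (0.45 ± 0.07) and PSAT1 (0.34 ± 0.05) were higher, while STC2 (-0.67 ± 0.05), a secreted glycoprotein, was lower. Of 21 genes of the unfolded protein response of the endoplasmic reticulum 5 fell (23.8%) and none rose. HYOU1 was at -0.28 and HSPA5 at -0.26, and no member was called without the pairing. Of 21 heat shock chaperones 6 rose (28.6%) and none fell, led by HSPA1A (0.59 ± 0.12), whose reads may be shared with its copy HSPA1B. Without the pairing 1 was called.

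In cholesterol synthesis and uptake 9 of 25 genes fell (36%, against 7.56% of all genes) and none rose (median log2 -0.12). The count was 6 without the pairing. INSIG1 (-0.66 ± 0.08), which holds back the SREBP factors, and SQLE (-0.45 ± 0.05), squalene epoxidase, were among those that fell. Of 38 genes of hypoxia and glycolysis 12 rose (31.6%, against 5.77% of all genes) and 2 fell (5.26%, median log2 0.11). CA9, carbonic anhydrase 9, was at 2.36, 2.07 and 3.11 CPM under NIF and 0.896, 0.545 and 0.700 under DMSO (log2 1.82 ± 0.25) and was 1.86 without DMSO replicate 3, and NDRG1 (0.40 ± 0.05) rose too. Without the pairing 3 of this list rose. Of 26 immediate early genes 9 rose (34.6%) and 5 fell (19.2%), and 2 were called without the pairing. KLF2, FOS and EGR1 (0.55 ± 0.10) were higher, and FOSL1 (-0.25 ± 0.05) and IER3 (-0.27 ± 0.05) were lower.

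Of 85 cytosolic ribosomal protein genes 2 fell (2.35%, against 7.56% of all genes) and none rose (median log2 0.02). Of 78 mitochondrial ones 14 rose (17.9%, against 5.77% of all genes) and 1 fell (1.28%, median 0.08), led by MRPL41 (0.40 ± 0.06). Of 79 nuclear genes of the respiratory chain 11 rose (13.9%) and none fell (median 0.07). Of 37 aminoacyl-tRNA synthetases 8 rose (21.6%) and 1 fell (2.70%, median 0.07). Without the pairing 2, 0 and 0 of the last 3 lists rose, and without DMSO replicate 3 it was 5, 0 and 0. Of 422 tested genes whose symbol begins with ZNF, a list chosen after the values were seen, 67 rose and 7 fell (15.9% and 1.66%, median log2 0.09), with 13 and 2 calls without the pairing and 23 and 5 without DMSO replicate 3. ZNF469 (0.61 ± 0.07) was the one that rose with the lowest p and ZNF217 (-0.57 ± 0.07) the one that fell. In each of 11 further lists (among them HLA class I, BCL2 family, YAP targets, proteasome and histones) at most 5 genes rose and at most 5 fell, with medians between -0.06 and 0.12. Of these 11, YAP and TGF-beta targets had the highest share that rose (5 of 21, 23.8%, against 5.77% of all genes), with 3 lower (14.3%), and a list of ERK feedback and target genes the highest share that fell (5 of 18, 27.8%, against 7.56%), among them the ligands EREG and AREG, with 3 higher (16.7%).

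The gate itself rests on aldehyde dehydrogenase activity. Of 15 tested aldehyde dehydrogenase genes 2 rose and 2 fell (13.3% each, against 5.77% and 7.56% of all genes). ALDH1A1, an enzyme often tied to the readout of this assay, was at 186, 127 and 218 CPM under NIF and 150.1, 104 and 153 under DMSO (log2 0.37 ± 0.06, edgeR adjusted p = 0.000102). It was higher under NIF in all 3 pairs, the groups overlapped, and the call was lost without the pairing and in DESeq2. ALDH3A2 (0.22 ± 0.05) rose, and ALDH3B1 (-0.49 ± 0.07) fell. ALDH1A3 was at 0.128, 0.291 and 0.366 CPM under NIF and 0.494, 0.476 and 0.888 under DMSO (log2 -1.26 ± 0.38, edgeR adjusted p = 0.0317) and lost its call without any 1 of the 6 libraries.

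The direction of change went with gene span, the genomic length of a gene with its introns. Over 10798 protein-coding genes whose log2 CPM averaged 1 or more, the median span was 19.6 kb for genes that rose, 47.2 kb for genes that fell and 32.5 kb for all. From the shortest to the longest of 5 equal groups of genes, the share that rose went down from 11.6% to 3.84% and the share that fell went up from 6.53% to 12.7%. The trend was not seen in each pair. In pair 1 the median log2 difference was -0.00 in both the shortest and the longest group, in pair 2 it was 0.06 and -0.06, and in pair 3 it was 0.06 and -0.05. Spearman's rho across genes, which are not independent replicates, was 0.01 in pair 1, -0.23 in pair 2 and -0.22 in pair 3, against -0.01 in ALDHneg cells of the same line and 0.10 in SW620 ALDHbr cells. GC content ran the other way, with rho of -0.13, 0.27 and 0.26 in the 3 pairs. With offsets for span and GC content in the fit, 2401 genes were called, 1239 higher and 1162 lower. Why the pairs differ in this trend was not tested. Long non-coding RNAs, of which 1201 were tested, fell in 52 cases (4.33%, against 7.56% of all genes) and rose in 6 (0.50%, against 5.77%).

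The same comparison in ALDHneg cells called 1970 genes (13.2%), 912 higher (6.1%) and 1058 lower (7.08%). It used other libraries, but with the same replicate numbers and in the same fit, so it is not independent of the ALDHbr result. Of the 1994 genes called in ALDHbr cells, 1183 (59.4% of the ALDHbr calls and 60.1% of the ALDHneg calls) were called in ALDHneg cells in the same direction and 1 in the opposite direction. Among the lists with the most calls, ALDHneg cells had 25 NRF2 targets higher and 1 lower (median log2 0.31), 21 cytokine and NF-kB genes lower (median -0.66) and 28 G2/M genes lower (median -0.17). Other counts stood further apart, with none of the respiratory chain genes higher in ALDHneg cells (11 in ALDHbr), 7 mitochondrial ribosomal protein genes (14), 2 heat shock chaperones (6) and 19 genes of hypoxia and glycolysis (12). No member of these 4 lists passed the test of the difference between the populations. The effect of NIF itself differed between the populations for 6 genes (0.0401%) in the test of that difference, and for 686 (4.59%) at an unadjusted p below 0.05.

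Of these 6 genes 5 were reduced more in ALDHbr cells. EREG was at 47.2, 43.3 and 48.3 CPM in ALDHneg cells under NIF and 101, 71.1 and 61.3 under DMSO (log2 -0.73 ± 0.10), and fell by more in ALDHbr cells (difference -0.80 ± 0.14, edgeR adjusted p = 0.0320). AREG fell in ALDHbr cells and was 12.9, 10.1 and 21.0 CPM under NIF and 11.4, 8.15 and 8.06 under DMSO in ALDHneg cells (log2 0.64 ± 0.16; difference -1.54 ± 0.21, edgeR adjusted p = 0.00336). RUNX2 was at 14.8, 13.9 and 9.86 CPM under NIF and 38.6, 32.8 and 25.5 under DMSO in ALDHneg cells (log2 -1.33 ± 0.08; difference -0.81 ± 0.12, edgeR adjusted p = 0.00619). In each of the 3 pairs the change of these genes in ALDHbr cells was below that in ALDHneg cells. The genes were chosen by a test on the same pairs, so this is no separate support.

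STC1, a secreted glycoprotein, was at 10.2, 10.0 and 9.43 CPM under NIF and 23.9, 24.3 and 17.1 under DMSO in ALDHbr cells (log2 -1.13 ± 0.08) and at 32.9, 32.2 and 28.2 under NIF and 38.2, 37.7 and 29.0 under DMSO in ALDHneg cells (log2 -0.16 ± 0.07; difference -0.96 ± 0.11, edgeR adjusted p = 0.000214). FAM167A was at 21.9, 29.2 and 23.7 CPM under NIF and 82.2, 92.6 and 66.1 under DMSO in ALDHbr cells and at 30.3, 41.9 and 34.7 under NIF and 76.3, 82.8 and 57.4 under DMSO in ALDHneg cells (difference -0.66 ± 0.12, edgeR adjusted p = 0.0320). BAIAP3, a protein of vesicle release, went the other way. Its log2 CPM averaged 1.45 over the 12 SUM159 libraries, above the level of 1 set for naming. It fell in ALDHneg cells from 18.4, 13.1 and 15.5 CPM to 1.60, 1.82 and 1.92 (log2 -3.15 ± 0.21), and in ALDHbr cells it was low under both, at 0.821, 1.29 and 1.15 under NIF and 2.47, 2.21 and 0.861 under DMSO (difference 2.41 ± 0.37, edgeR adjusted p = 0.00619). Without the pairing no difference was called in edgeR, and 238 genes had an unadjusted p below 0.05. Leaving out 1 of the 12 libraries at a time, AREG and STC1 kept their call each time, BAIAP3 lost it once (NIF replicate 2 of ALDHbr cells), RUNX2 2 times (NIF replicates 1 and 2 of ALDHbr cells), EREG 7 times and FAM167A 8 times. In DESeq2, EREG was not called (adjusted p = 0.487), and with library-size scaling in edgeR neither EREG (adjusted p = 0.0547) nor FAM167A (0.0534) was.

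**Figure D2:**
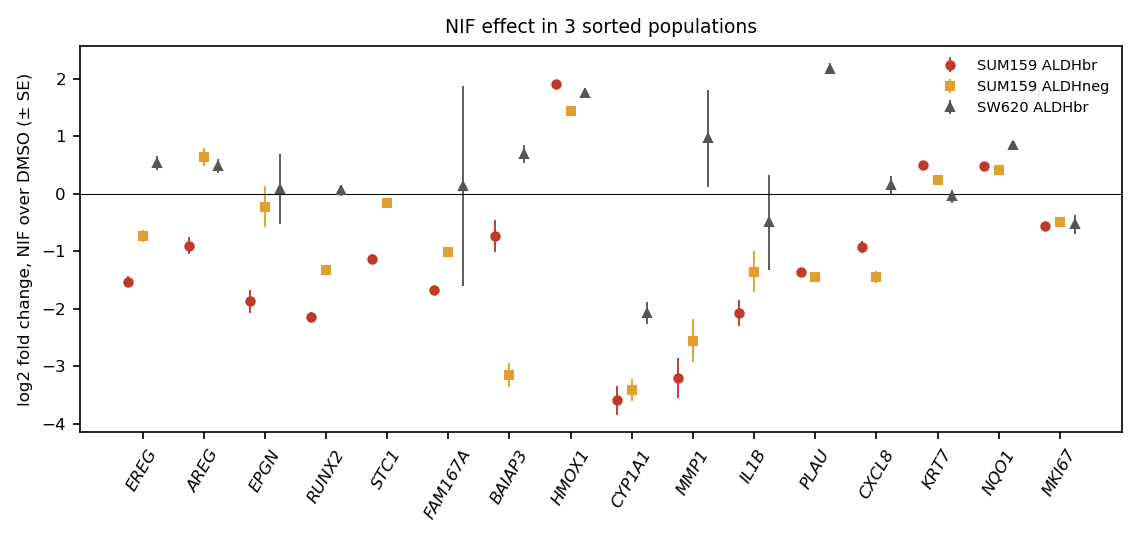
Log2 fold change of NIF over DMSO with its standard error for 16 genes in SUM159 ALDHbr, SUM159 ALDHneg and SW620 ALDHbr cells. EREG, AREG, EPGN, RUNX2, STC1 and FAM167A lie lower in SUM159 ALDHbr than in SUM159 ALDHneg cells, and HMOX1 is above 0 and CYP1A1 below 0 in all 3 populations. STC1 had no counts in SW620 ALDHbr cells and has no point there.

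The response was also set against that of SW620 ALDHbr cells. In one fit of all 24 libraries, the effect of NIF differed between the lines for 4529 of 16271 genes tested (27.8%), with 2134 differences above 0 (SUM159 minus SW620) and 2395 below it. HMOX1 rose in both lines (log2 1.75 ± 0.09 in SW620) and CYP1A1 fell in both (-2.07 ± 0.19). Of the 14953 genes tested in SUM159, 2941 were higher and 2927 lower under NIF in SW620 ALDHbr cells. The SW620 counts of the lists are read against these. NRF2 targets rose in SW620 too (31 of 33 higher, median log2 0.93), and the effect differed between the lines for 24 of them. The cytokine and NF-kB genes had a median of -0.00 there, with 6 higher and 4 lower and 15 of 28 differing from SUM159. S phase genes fell in SW620 (36 of 43 lower, median -0.36, 35 differing between the lines), and G2/M genes fell in both (45 of 54 lower in SW620, median -0.42, 26 differing).

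The highest differences between the lines among genes whose log2 CPM averaged 1 or more were those of SIRPA, ATOH8, PHLDB2, CA9 and ACSM3. PHLDB2 was at 135 ± 10.6 CPM under NIF and 123 ± 7.29 under DMSO in SUM159, and at 0.459 ± 0.130 under NIF and 3.70 ± 0.20 under DMSO in SW620 (SD, n = 3 each) and fell in SW620 (difference 3.15 ± 0.19, edgeR adjusted p = 2.02e-11). CA9 was at 2.37 ± 0.515 CPM under NIF and 0.669 ± 0.164 under DMSO in SUM159, and at 94.4 ± 9.24 under NIF and 211 ± 31.8 under DMSO in SW620 (SD, n = 3 each), so that it rose in SUM159 and fell in SW620 (difference 2.98 ± 0.29, edgeR adjusted p = 7.07e-08). SIRPA (4.64 ± 1.15) and ATOH8 (4.54 ± 0.86) were below 1 CPM in SW620, SIRPA with its NIF libraries listed at 0, and ACSM3 (2.33 ± 0.48) was below 1 CPM in SUM159. The lowest were those of AKR1B10, ALDH3A1, AGR2, ANXA8 and TM4SF4. For AKR1B10 (-6.55 ± 0.68), ALDH3A1 (-6.50 ± 1.41), AGR2 (-6.27 ± 1.26) and TM4SF4 (-5.94 ± 0.85) the SUM159 counts stood almost wholly in DMSO replicate 3, at 4.01, 0.704, 0.595 and 0.704 CPM of total counts, against at most 0.132 in the other 5 ALDHbr libraries. ANXA8 (-6.0 ± 1.45) was listed at 0 in the SW620 DMSO libraries, and the fitted differences of genes with such libraries depend on the prior count.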

How the data were processed

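SUM159 cells, an established breast cancer cell line, were treated by the authors with NIF or DMSO for 30 h and sorted by ALDEFLUOR, and RNA was extracted with the Maxwell RSC simplyRNA kit and sequenced after the Illumina Stranded Total RNA preparation. The deposited table holds raw counts per gene for 28307 genes. The submitters' processing notes name FastQC, STAR and GRCh38 without versions, while the counting tool, annotation and strand setting are not given in the sources used here.

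Groups came from the labels, with 3 libraries each. The p-values for SUM159 rest on the spread left among all 12 of its libraries once group and replicate number were fitted. Counts were tested in edgeR 4.0.16 (R 4.3.3) with TMM scaling, filterByExpr by group, the quasi-likelihood test and Benjamini-Hochberg adjustment at 0.05, over all 12 SUM159 libraries and blocked on the replicate number. The difference between populations was the interaction in the same fit, and that between lines was fitted over all 24 libraries. Standard errors were derived from the fold change and its F statistic. Libraries with the same number were taken as the same experiment, since the study's methods name 3 independent experiments. They correlated at 0.125 to 0.451 in their deviations. On average over the libraries of other groups, each of the 12 libraries correlated best with its own number. No pair of libraries agreed within sampling noise (chi-square per gene of 6.67 to 25.5). The tests were checked on simulated counts first. Alternatives were DESeq2 1.42.0, other scalings, filters and sample sets, and offsets from a smooth fit (mgcv 1.9.3) of span and GC content.

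Members and lists were chosen with earlier results of these data known, and lists are described by counts and medians only. Named genes were those the study measures or manipulates, the 12 highest and 12 lowest fold changes where the log2 CPM averaged 1 or more, with one sign in all pairs, the 10 lowest p-values per direction, up to 4 called genes per list and direction, every member of roles with at most 8 genes, and the 5 highest and lowest differences between populations. Genes outside this rule are named as such, and some genes within it are not reported here. ALAS1, KITLG, KRT7 and PLAU come from the p-value part. Gene spans and promoters come from RefSeq (GRCh38.p14). GC content is that of the longest GENCODE transcript with the same gene symbol, from a set lifted to an earlier genome build.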

Additional observations from a re-analysis of the deposited data

Results flagged for a closer look

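The effect of NIF differed between ALDHbr and ALDHneg cells of SUM159, by the test of the difference itself, for AREG (-1.54 on the log2 scale), STC1 (-0.96), RUNX2 (-0.81), EREG (-0.80), FAM167A (-0.66) and BAIAP3 (2.41). The change lay lower in ALDHbr cells in 3 of 3 pairs for the first 5 genes and in 0 of 3 for BAIAP3. These pairs are the ones the test used, so their agreement is no separate support.

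The effect differed between SUM159 and SW620 ALDHbr cells, by the same kind of test, for AKR1B10 (-6.55), ALDH3A1 (-6.50), AGR2 (-6.27), ANXA8 (-6.0) and TM4SF4 (-5.94), which were lower in SUM159. It was higher in SUM159 for ACSM3 (2.33), CA9 (2.98), PHLDB2 (3.15), ATOH8 (4.54) and SIRPA (4.64). These are the extremes of 4529 such differences, and the SUM159 values of AKR1B10, ALDH3A1, AGR2 and TM4SF4 rest on DMSO replicate 3.

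DMSO replicate 3 of the ALDHbr cells held counts of all 39 genes that mark SW620, at 0.372% of their level there, which stood out from the other 11 SUM159 libraries. EPCAM was at 2.35, KRT20 at 2.03 and CDH1 at 1.84 CPM of total counts in that library.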

How the results depend on the processing

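The number of genes called in SUM159 ALDHbr cells (1994) was 473 with no replicate block, 1317 in the fit of all 24 libraries and 137 with a fold threshold of 2, and it stayed within 1.5 times in DESeq2 (1956), under both other scalings (2014 and 1973), with other filters (2339 and 1994), with the 6 libraries alone (2895) and with span and GC offsets (2401). Leaving out 1 library gave 1097 to 1487 calls, with 1277 without NIF replicate 1, 1218 without NIF replicate 2 and 1097 without DMSO replicate 3. Leaving out a replicate number gave 887 (replicate 1), 1336 (replicate 2) and 1123 (replicate 3). Fits that leave out libraries have fewer samples, and the cause beyond that was not tested. The 6 differences between ALDHbr and ALDHneg cells became 0 in edgeR without the block that pairs replicates (238 at an unadjusted p below 0.05), 6 in DESeq2 with it, 4 with library-size scaling, 39 with no filter on low counts, 2 with the fold threshold and 2 to 7 without 1 library. The 4529 differences between the lines became 819 with the fold threshold, 3762 without the pairing and 3777 to 5674 without 1 library.

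Of 139 genes given above with a call, 82 kept it in every alternative, 22 lost it only without the block and 35 in another. Without 1 library, 28 lost it, at an adjusted p of 0.050 to 0.278 in edgeR. They were ABCC2 (NIF 1 or DMSO 1 and 2), ALDH1A3 and RFWD3 (any 1 of the 6), CCL20 and LOXL2 (NIF 2 and 3 or DMSO 1 and 2), GTF2H4 (NIF 2 and 3 or DMSO 1 and 3), HYOU1 (NIF 3 or DMSO 1), IFI44 (NIF 1 and 2 or DMSO 1 and 3), MT1E and SOCS3 (NIF 1 and 2 or DMSO 1), STAT3 (NIF 1 and 3 or DMSO 1), TP53I3 (NIF 1 or DMSO 1 and 3), VIM (NIF 1 and 3 or DMSO 1, 2 and 3), AHR, ERCC6 and RAD54L (NIF 1 and 2 or DMSO 2 and 3), BLVRB (NIF 1 and 3 or DMSO 2 and 3), DDB2 (NIF 1 and 3 or DMSO 2), DDX58 (NIF 3 or DMSO 2), FN1 (NIF 2 and 3 or DMSO 2 and 3), IRF1 (NIF 1 or DMSO 2), XRCC3 (NIF 1, 2 and 3 or DMSO 2 and 3), CDC6, CSF2 and MCM5 (NIF 1 or DMSO 3), TALDO1 (DMSO 3), ABCB1 (NIF 1 and 2), and HSPA5 (NIF 3), where numbers are replicates left out. ALDH1A1 (0.123), HSPA5 (0.0874), HYOU1 (0.0523) and TP53I3 (0.101) were not called in DESeq2. In the fit of all 24 libraries, 14 of the 139 genes were not called in edgeR. Among them were STAT3 (edgeR adjusted p = 0.0782), IL6ST (0.171), OSMR (0.179), AHR (0.179), MT1E (0.158), LOXL2 (0.203) and VIM (0.2799). The others were ERCC6 (0.1795), TALDO1 (0.0921), RFWD3 (0.0722), FN1 (0.0718), BLVRB (0.0697), GTF2H4 (0.0504) and CCL20 (0.0502). Of the differences between lines, AKR1B10 (adjusted p = 0.0675) and AGR2 were not called in edgeR without DMSO replicate 3, nor AGR2, ALDH3A1 (0.212) and TM4SF4 (0.127) without NIF replicate 3, both of SUM159.

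Near 0, the sign of uncalled genes turned. With offsets, BRCA1 went to 0.038, BRCA2 to 0.050 and FANCD2 to 0.023 on the log2 scale. Without 1 library or replicate number, the values ran from -0.033 to 0.027 for BRCA1, from -0.0999 to 0.068 for BRCA2, from -0.028 to 0.0066 for FANCD2 and from -0.027 to 0.062 for ERCC1. The list median ran from -0.014 (without replicate 1) to 0.026 for Fanconi anemia genes, from -0.0039 (without NIF replicate 1) to 0.084 for homologous recombination and from -0.066 (without DMSO replicate 1) to 0.107 for aldehyde dehydrogenases. The difference between lines of ALDH3A1 ran from -7.97 to 0.050, the latter without DMSO replicate 3.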
